A study of Oryza sativa with 16 samples.

Results

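The genotype by drought interaction asked whether the response of the rice flag leaf to reproductive-stage drought stress (RDS) differed between DTY-IL and Swarna. It is the log2 change under drought in DTY-IL minus the log2 change under drought in Swarna, so that a positive value means a more positive change in DTY-IL. All loci with at least 10 counts in total were tested, which were 28283 of the 55801 loci in the count table. Of the loci left out, 18752 had 0 counts and 8766 had 1 to 9 counts. At the edge of this filter, 296 tested loci had exactly 10 counts and 315 loci that were left out had exactly 9.

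DTY-IL is a single drought-tolerant introgression line that carries segments of the donor N22 in the background of Swarna, and Swarna is a drought-sensitive indica variety. The groups were DTY-IL under drought, DTY-IL under control, Swarna under drought and Swarna under control, with 4 biological replicates each. Plants grew in pots in a greenhouse, and drought plants were held first at 75% and then at 50% of field capacity and sampled on day 12 of stress, while control plants were well watered. Since there is 1 introgression line, a difference between the lines cannot be assigned to any single N22 segment. Library totals were between 14250527 and 17325329 counts in DTY-IL drought, 15140254 and 19367077 in DTY-IL control, 14854039 and 17136250 in Swarna drought, and 16451473 and 18719541 in Swarna control.

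Leaves under water deficit close their stomata, and genes for photosynthesis and growth are commonly turned down while genes for protection and signalling are turned up. An interaction separates loci that respond alike in both lines from loci whose response depends on the line. The count table gives locus identifiers without names, 0 of them matched the gene table used here, and the text of the study annotates 8. Function is therefore given for these 8 loci alone, and the other loci are described by their values. The identity of the tissue was not checked against marker genes for the same reason. In bulk leaf RNA, fewer cells of a type and less RNA per cell cannot be told apart.

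A call required an absolute log2 interaction of at least 1 together with an adjusted p (Benjamini-Hochberg, edgeR quasi-likelihood test) no higher than 0.05. The call was passed by 1389 loci, or 4.91% of those tested. Of these, 995 (3.52%) had a more positive change in DTY-IL and 394 (1.39%) a more negative one. The median interaction was 0.01 over all loci tested, 1.86 over the more positive calls and −1.48 over the more negative calls. With library size alone as the scaling, which moved the median interaction of all loci to −0.23, 672 loci were more positive and 1126 more negative. The more negative calls numbered 237 without DTY-IL control 4, 261 without Swarna drought 2 and 683 without DTY-IL control 3. A test against a log2 change of 1 (edgeR's glmTreat) gave 96 more positive and 9 more negative calls.

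**Figure D1:**
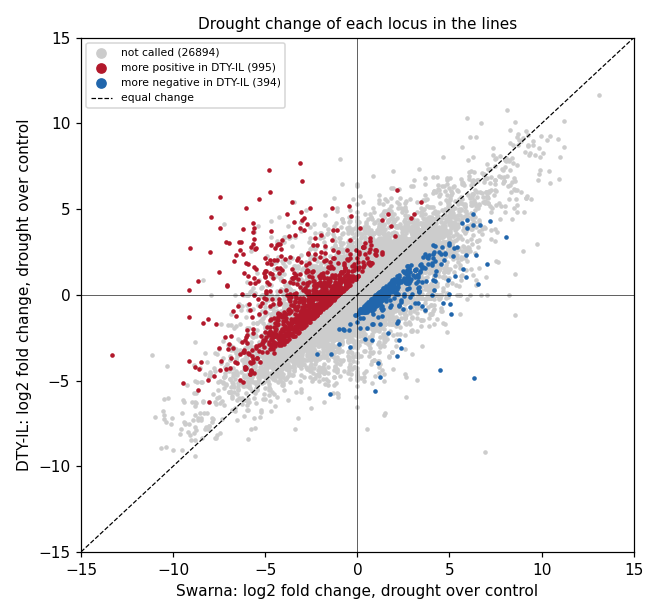
Log2 fold change, drought over control, of each tested locus in DTY-IL (vertical axis) against Swarna (horizontal axis), with the 995 more positive calls in red and the 394 more negative calls in blue. Red points lie above the dashed line of equal change, mostly left of 0 for Swarna, and blue points lie below it.

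The calls that chose these loci were then set out by the change in each line, as a description. Among the 995 more positive calls, drought alone was called as a decrease for 334 loci and as an increase for 147 in DTY-IL, while 514 were not called. In Swarna the same loci held 838 decreases and 12 increases, and 145 were not called. Their median change was −0.33 in DTY-IL and −2.59 in Swarna. The largest class, 455 loci, was called as a decrease in Swarna and not called in DTY-IL, and 334 were called as a decrease in both lines. Another 49 were called as an increase in DTY-IL and a decrease in Swarna, and 86 as an increase in DTY-IL alone. For background, drought was called as an increase for 12% and a decrease for 11.5% of all tested loci in DTY-IL, and for 15.2% and 17.3% in Swarna.

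The 394 more negative calls showed the opposite pattern in Swarna. Drought was called as an increase for 75 of them and a decrease for 41 in DTY-IL, against 282 increases and 4 decreases in Swarna. Their median change was 0.07 in DTY-IL and 1.65 in Swarna. Of these loci, 198 were called as an increase in Swarna and not called in DTY-IL, 75 as an increase in both lines, and 9 as a decrease in DTY-IL and an increase in Swarna.

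The treatment in which the lines differed was not the same for the 2 directions. Of the 995 more positive calls, 543 were also called as higher in DTY-IL than in Swarna under drought, and 180 as lower in DTY-IL under control. Of the 394 more negative calls, 90 were called as lower in DTY-IL under drought and 185 as higher in DTY-IL under control. Both differences were called for 58 of the more positive and 6 of the more negative loci, and neither for 330 and 125. Over all tested loci, 4.2% were called as higher and 2.39% as lower in DTY-IL under drought, and 2.99% as higher and 2.12% as lower under control. These comparisons use the same libraries as the interaction and are no separate evidence for it.

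The interaction calls differed in frequency with the abundance of the locus. Classes of mean count over the 16 libraries were set after the data had been seen. Of 7812 loci with a mean under 10 counts, 93 were more positive and 19 more negative. The more positive calls made up 4.75% of 6973 loci with 10 to under 100 counts, 3.63% of 10463 loci with 100 to under 1000, and 4.71% of 2869 loci with 1000 to under 10000. In the same classes the more negative calls made up 1.65%, 1.80% and 2.47%. Among the 166 loci with a mean of at least 10000 counts, 56 (33.7%) were more positive and 1 (0.602%) was more negative.

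**Figure D2:**
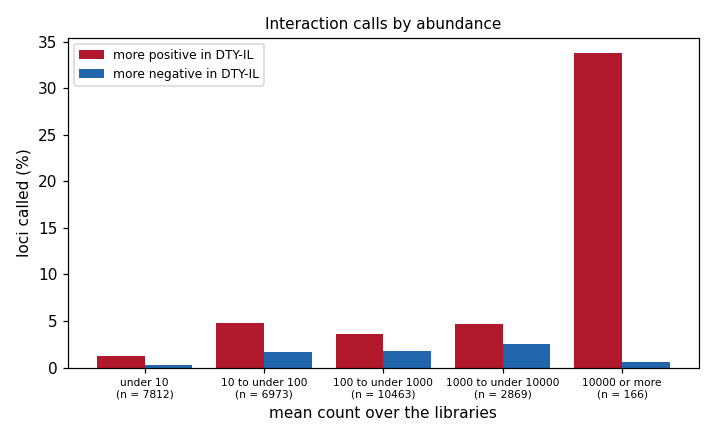
Share of tested loci called for the interaction (vertical axis, %) in 5 classes of mean count over the libraries (horizontal axis), in each direction. The bar of the more positive calls reaches 33.7% in the class of at least 10000 counts and stays under 5% in the other classes.

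In the abundant class, 121 of the 166 loci had a positive interaction and the median was 0.81, against 0.01 over all loci. Drought was called as a decrease for 62 and an increase for 21 of them in DTY-IL, against 95 decreases and 20 increases in Swarna. The median locus kept 66.1% of its control level under drought in DTY-IL and 37.8% in Swarna. Between the lines, 27 were called as higher and 1 as lower in DTY-IL under drought, and 6 were called in either direction under control. With library size alone, 30 were more positive and 6 more negative, and their median interaction remained 0.79 above that of all loci. Without DTY-IL drought 1, 35 were more positive, with a replicate block by description number 30, and by edgeR's glmTreat 1.

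The share of library counts held by these 166 loci, which were chosen by their counts in the same libraries, is given per library. It was 31.2%, 29.5%, 30.9% and 28.5% in DTY-IL drought, against 42.4%, 41.8%, 38.9% and 40.0% in DTY-IL control. It was 20.3%, 23.6%, 23.9% and 24.1% in Swarna drought, against 40.4%, 44.9%, 41.9% and 45.2% in Swarna control. Every DTY-IL drought library thus held a larger share than any Swarna drought library, whereas the ranges of the control libraries overlapped. The means were 30.0% ± 1.23 in DTY-IL drought and 40.8% ± 1.63 in DTY-IL control, and 23.0% ± 1.82 in Swarna drought and 43.1% ± 2.34 in Swarna control (SD, n = 4 each). A change in this share also enters the scaling of every other locus. The scaling factors (TMM) were 1.09 to 1.19 in DTY-IL drought and 0.835 to 0.906 in DTY-IL control. They were 1.22 to 1.31 in Swarna drought and 0.762 to 0.848 in Swarna control. With the 20 most abundant loci removed before scaling, 1378 of the 1389 calls were kept in the same direction. The other 146 loci of the abundant class stayed in that fit, so it cannot show how their share enters the scaling. With library size alone as the scaling, 1057 were kept.

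**Figure D3:**
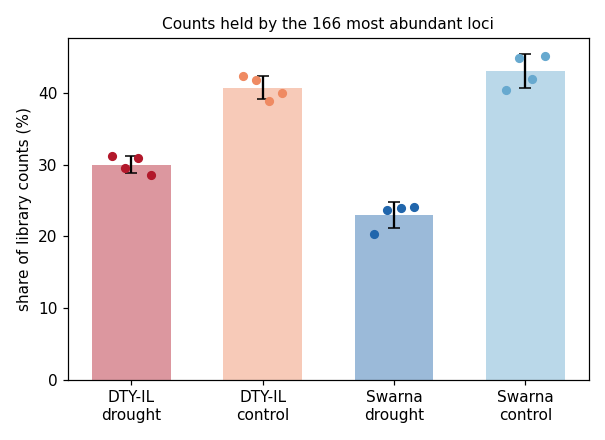
Share of library counts (vertical axis, %) held by the 166 loci with a mean of at least 10000 counts, with a point per library and bars with error bars for the mean and SD of 4 libraries. The 4 DTY-IL drought libraries lie between 28.5% and 31.2%, above the 4 Swarna drought libraries, which lie between 20.3% and 24.1%.

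The change of each drought library from the control mean of its line, as log2(CPM + 1) with CPM the counts scaled to a common library size after TMM normalization, was compared between the lines. These changes did not overlap between the lines, in the direction of the call, for 976 of the 995 more positive calls (98.1%) and 380 of the 394 more negative calls (96.4%). Over all tested loci they did not overlap for 28.8%, with 15.4% more positive and 13.4% more negative. The calls were chosen on the same changes in the same libraries. Their lack of overlap largely follows from that choice and is no separate evidence for them. In the abundant class, 89 of 166 loci did not overlap in the positive direction and 11 in the negative direction. The median change of that class was −0.54, −0.73, −0.78 and −0.63 in the 4 DTY-IL drought libraries, against −1.76, −1.45, −1.28 and −1.33 in the 4 Swarna drought libraries. That class, too, was chosen by counts in these libraries.

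Among the 8 annotated loci, 3 encode class III peroxidases, secreted enzymes that use hydrogen peroxide and act on cell wall polymers and reactive oxygen species. LOC_Os07g48020 was the only one of the 8 that passed the call. It had 1, 8, 15 and 39 counts in DTY-IL drought, against 1, 3, 2 and 1 in DTY-IL control. In Swarna it had 0, 2, 1 and 3 counts under drought, against 5, 7, 2 and 1 under control. The drought library of DTY-IL with 1 count lay within the range of the DTY-IL control libraries, and the other 3 lay above it. The log2 interaction was 4.59 with an SE of 1.31 (edgeR adjusted p 0.0452). In DTY-IL the mean under drought was at least 4.35-fold higher than the floor of 3 counts per library that the control libraries allow (edgeR adjusted p 0.0141), and drought in Swarna did not pass (edgeR adjusted p 0.149). DTY-IL drought 4 held over 60% of the counts of its group, and without that library the edgeR adjusted p of the interaction was 0.0940. With a mean of 5.69 counts per library this call rests on few reads. It was lost in 12 of the 16 fits that left out a library, with an edgeR adjusted p of up to 0.114. The call was also lost with limma-voom (adjusted p 0.127) and with edgeR's glmTreat (adjusted p 0.238). Another count filter, edgeR's filterByExpr, left the locus out of the test.

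The other 2 peroxidases did not pass. LOC_Os03g13200 had 12, 11, 6 and 4 counts in DTY-IL drought and 1, 1, 1 and 6 in DTY-IL control, against at most 2 in every Swarna library, and the DTY-IL groups overlapped. Its interaction was 1.63 ± 1.45 (SE, edgeR adjusted p 0.574), and both Swarna groups were at or under the floor. Under drought it was higher in DTY-IL than in Swarna (edgeR adjusted p 0.0257). LOC_Os07g01370 had 30, 18, 50 and 21 counts in DTY-IL drought and 21, 12, 24 and 15 in DTY-IL control. In Swarna it had 7, 14, 20 and 27 under drought and 5, 7, 5 and 4 under control. Drought raised it in Swarna by 1.15 ± 0.45 (SE, edgeR adjusted p 0.0394), and the interaction was −0.73 ± 0.58 (SE, edgeR adjusted p 0.523). The log2 difference of DTY-IL from Swarna was 1.60 under control (edgeR adjusted p 0.0286) and 0.87 under drought (edgeR adjusted p 0.160).

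LOC_Os01g66120 encodes a no apical meristem (NAM) protein, of a family of plant transcription factors with members in stress responses. It rose in both lines. It was at 369, 180, 345 and 588 CPM in DTY-IL drought, against 153, 183, 204 and 132 CPM in DTY-IL control. In Swarna it was at 844, 394, 368 and 491 CPM under drought, against 198, 190, 229 and 278 CPM under control. The drought mean was 220% of the control mean in DTY-IL (edgeR adjusted p 0.00606) and 234% in Swarna (edgeR adjusted p 0.00259). The interaction was −0.09 ± 0.42 (SE, edgeR adjusted p 0.951). DTY-IL drought 2 overlapped the DTY-IL controls, whereas all Swarna drought libraries lay above their controls.

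LOC_Os01g66820, annotated as an inactive receptor kinase, fell in both lines. It had 5, 5, 2 and 1 counts in DTY-IL drought and 12, 17, 34 and 12 in DTY-IL control, against 3, 0, 0 and 2 in Swarna drought and 24, 20, 15 and 14 in Swarna control. The decrease had an edgeR adjusted p of 0.000809 in DTY-IL and 2.28e-05 in Swarna, where the drought mean was at least 8.75-fold lower. The interaction was 1.54 ± 0.88 (SE, edgeR adjusted p 0.335). Drought and control libraries did not overlap in either line.

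LOC_Os03g03510 carries the kinase domain of the SnRK3 family and a domain of CBL-interacting kinases, which act with calcium sensors. It was at 73.6, 22.1, 42.9 and 65.6 CPM in DTY-IL drought, against 48.1, 59.7, 56.6 and 86.7 CPM in DTY-IL control. In Swarna it was at 129, 52.6, 47.1 and 73.7 CPM under drought, against 87.1, 75.5, 89.7 and 83.3 CPM under control. Drought and control overlapped in both lines, and the interaction was −0.15 ± 0.46 (SE, edgeR adjusted p 0.910). LOC_Os07g22770, an AP2 domain protein of the kind that regulates floral organ identity, had at most 7 counts in any library and an interaction of −1.38 ± 1.21 (SE, edgeR adjusted p 0.569). LOC_Os01g67030, annotated as an auxin-responsive protein, had 1 count in total, in DTY-IL drought 1, and was not tested.

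**Figure D4:**
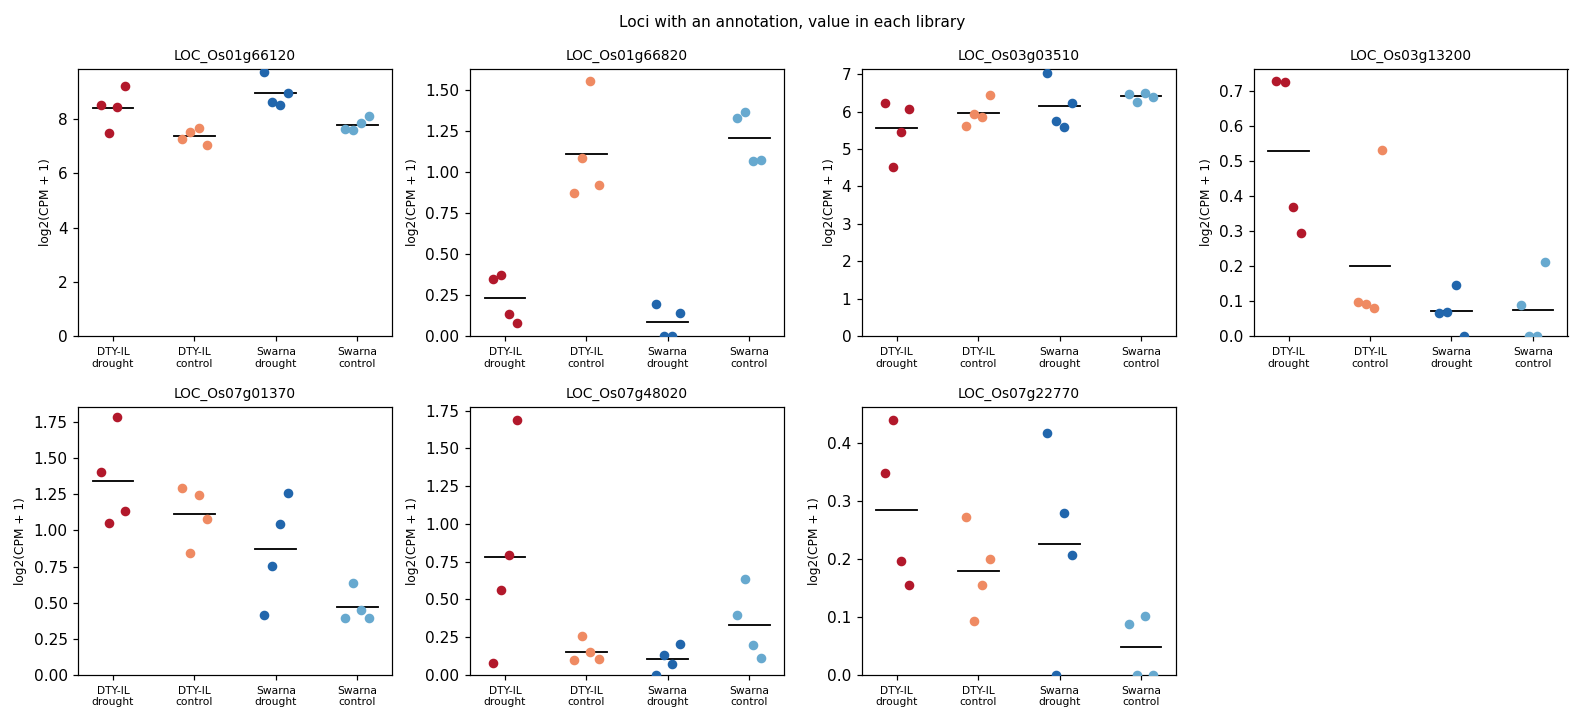
Log2(CPM + 1) (vertical axis) of the 7 annotated loci that were tested, with a point per library and a line at the mean of each group of 4 (horizontal axis). LOC_Os01g66120 lies higher under drought in both lines, and LOC_Os07g48020 has 2 of 4 DTY-IL drought libraries above every library of the other groups.

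Of the loci without an annotation, the 2 with the most positive and the 2 with the most negative interaction are given. The choice was limited to calls that averaged 50 counts or more per library, with no overlap of the changes between the lines, and no library holding over 60% of the counts of the group with the highest mean CPM. LOC_Os01g52240 fell in both lines. It had 1552, 2653, 301 and 575 counts in DTY-IL drought, against 11373, 10206, 4547 and 20523 in DTY-IL control. In Swarna it had 2, 0, 0 and 0 counts under drought, against 2308, 7162, 2853 and 4970 under control. DTY-IL drought thus kept 8.92% of the control mean, and no Swarna drought library had more than 2 counts. The interaction had an edgeR adjusted p of 0.00128, and without each library in turn it was at most 0.00574.

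LOC_Os12g24320 had 6, 494, 5 and 3 counts in DTY-IL drought, against 8, 5, 33 and 9 in DTY-IL control. In Swarna it had 3, 2, 0 and 3 counts under drought, against 66, 264, 94 and 66 under control. Swarna drought and control did not overlap, and the drought mean was at least 61.3-fold lower. In CPM the other 3 DTY-IL drought libraries lay between 0.171 and 0.328, just under the DTY-IL controls at 0.331 to 1.88, and DTY-IL drought 2 was far above them. The interaction had an edgeR adjusted p of 0.0115, and 0.0295 without that library, where the fitted log2 interaction was 4.62 in place of 9.49. The call was lost with limma-voom (adjusted p 0.0678) and with edgeR's glmTreat (adjusted p 0.0545). DTY-IL drought 2 held nearly all counts of its group, which is second in mean CPM to Swarna control.

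LOC_Os08g32160 was the most evenly measured of the 4. It was at 3.39, 3.33, 1.32 and 3.99 CPM in DTY-IL drought, against 3.25, 4.11, 4.10 and 5.95 CPM in DTY-IL control. In Swarna it was at 13.9, 13.9, 10.2 and 10.0 CPM under drought, against 0.441, 0.633, 0 and 0.394 CPM under control. Drought and control overlapped in DTY-IL, and all Swarna drought libraries lay above every other library. It rose by 5.01 ± 0.46 in Swarna (SE, edgeR adjusted p 7.44e-08), and the change in DTY-IL was −0.54 ± 0.36 (SE, edgeR adjusted p 0.245). The interaction was −5.55 ± 0.58 (SE, edgeR adjusted p 8.83e-05), and without each library in turn its edgeR adjusted p was at most 0.000489.

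LOC_Os09g36680 had 319, 133, 642 and 127 counts in DTY-IL drought, against 3049, 5471, 330 and 9786 in DTY-IL control. In Swarna it had 13, 51, 12 and 2743 counts under drought, against 31, 16, 27 and 16 under control. Swarna drought 4 held nearly all counts of its group, and DTY-IL control 3 lay within the range of DTY-IL drought. The log2 difference of DTY-IL from Swarna was 7.66 under control (edgeR adjusted p 0.00648) and −1.18 under drought (edgeR adjusted p 0.598). The interaction was −8.84 ± 1.99 (SE, edgeR adjusted p 0.0156). Without Swarna drought 4 it was −3.996 (edgeR adjusted p 0.0730), so that the call rests on that library.

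**Figure D5:**
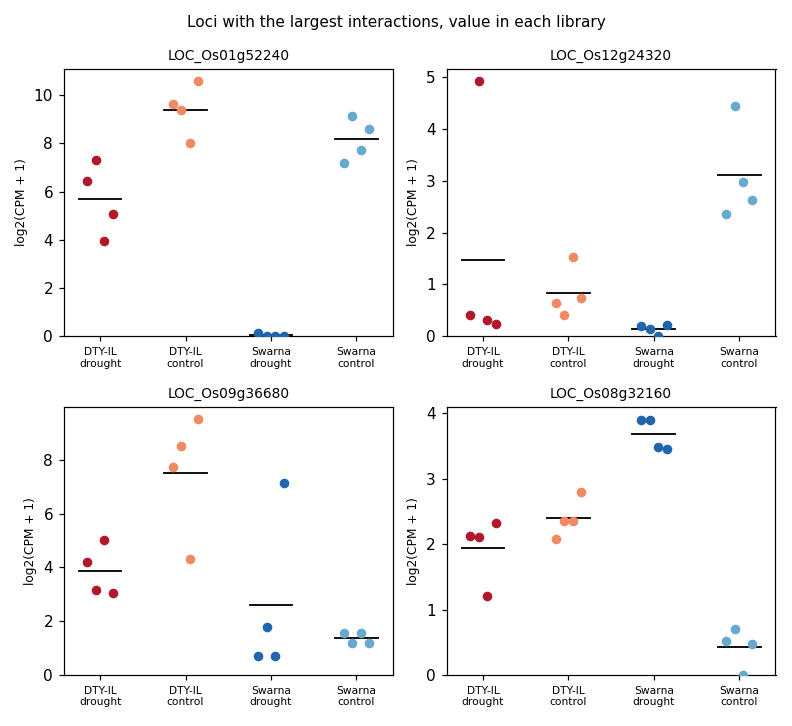
Log2(CPM + 1) (vertical axis) of the 4 loci without an annotation, with a point per library and a line at the mean of each group of 4 (horizontal axis). LOC_Os08g32160 has all 4 Swarna drought libraries above the rest, while single libraries stand apart in LOC_Os12g24320 and LOC_Os09g36680.

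Calls were also examined for dependence on single libraries. In 46 of the 995 more positive calls (4.62%) and 2 of the 394 more negative calls, a library held over 60% of the counts of the group with the highest mean CPM. That library was DTY-IL drought 2 for 30 loci and Swarna control 4 for 12. A group had at most 3 counts in every library for 139 of the more positive and 28 of the more negative calls, so that their fitted size is no bound. In all 16 fits that left out a library, 711 of the 1389 calls were kept in the same direction, 542 more positive and 169 more negative, so that the other 678 were lost in at least 1 of these fits.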

How the data were processed

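The authors trimmed paired-end reads with Trimmomatic, quantified transcripts of the japonica reference with Salmon 0.7.2 and aggregated them to loci with tximport. The deposited table gives the expected count (estimated count) per locus in whole numbers, without normalization, and whether it was scaled by transcript length is not stated. The deposited tables of the authors' own contrasts (log2 fold changes and p-values from DESeq2) were not used.

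Loci with at least 10 counts in total were fitted in edgeR 4.0.16 (R 4.3.3) with TMM factors in 1 quasi-likelihood model of the 4 groups, with two-sided tests and Benjamini-Hochberg adjustment over all loci. Each SE was derived from the test, as the absolute log2 change divided by the square root of its F statistic. It is approximate, above all at low counts. On simulated counts for the interaction, 178 of 200 loci changed by a log2 of 2 among 27690 were recovered, with 6 false calls. The changed loci were drawn from loci with a mean of at least 50 counts. Recovery thus cannot be applied to loci under that mean, among them the 7812 tested loci with a mean under 10 counts. Smaller changes were not simulated. The simulation gives no error rate for the 1389 calls. Of these, 678 were lost in at least 1 fit that left out a library. Depth is given with the results. Precision rests on the spread between libraries. No library was a copy of another of its group (squared difference per count at least 12.4 times counting error). Labels name no batch.

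The comparisons, naming rule and lists were chosen with earlier results of these data known. Lists of genes by function and of tissue markers had been drawn up from memory, with the rule that names be used only where a source annotates the locus. They were looked at in an exploratory fit, whose list counts are not given here. No source used here annotates their loci, so they are not reported, and the part of the naming rule that draws on them was not applied. The rule for the other loci tabulated 6 per direction, of which 2 are named. Alternatives were RLE factors, library size alone, other count filters, limma-voom (limma 3.58.1), DESeq2 1.42.0, glmTreat, a call by adjusted p only, replicate blocks, removal of the 20 most abundant loci and of each library.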

Additional observations from a re-analysis of the deposited data

Results flagged for a closer look

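LOC_Os12g24320 was at 29.3 CPM in DTY-IL drought 2, against 0.171 to 0.328 CPM in the other 3 libraries of that group, a gap past Dixon's 95% critical value for 4 samples on the log2(CPM + 1) scale. LOC_Os03g13200 was at 0.447 CPM in DTY-IL control 4, against 0.0570 to 0.0692 CPM in the other 3, which is 6 counts against 1 each. LOC_Os01g52240 was at 0.0960 CPM in Swarna drought 1, against 0 in the other 3, which is 2 counts against 0. On that scale these were the 3 gaps past the value among 44 sets of 4 values (11 loci by 4 groups). A chance rate of about 1 in 20 holds for normally distributed values. It does not apply to sets of few counts, as in LOC_Os03g13200 and LOC_Os01g52240. Swarna drought 4 in LOC_Os09g36680 lay just short of it. The drought response differed between the lines, by the interaction term, for 1389 loci. Among the loci named, the log2 interaction was 9.81 for LOC_Os01g52240, 9.49 for LOC_Os12g24320, 4.59 for LOC_Os07g48020, −8.84 for LOC_Os09g36680 and −5.55 for LOC_Os08g32160. For LOC_Os01g52240, LOC_Os12g24320 and LOC_Os07g48020 a group had at most 3 counts in every library, so that the fitted value is no bound.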

How the results depend on the processing

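Leaving out 1 library moved the 1389 edgeR calls to between 990 (DTY-IL control 1 left out) and 1817 (DTY-IL control 3 left out). The more positive calls ranged from 697 to 1134 and the more negative from 237 (DTY-IL control 4 left out) to 683 (DTY-IL control 3 left out), with 261 when Swarna drought 2 was left out. The abundant more positive calls ranged from 35 to 65. The glmTreat test gave 105 calls, 96 more positive and 9 more negative, with 1 more positive abundant locus. Library size alone gave 1126 more negative calls and 30 abundant more positive ones, and adjusted p alone gave 604 more negative ones. The cause of these changes was not tested. Drought calls stayed within 1.5 times of 6641 in DTY-IL and 9212 in Swarna under the alternatives run for them.

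With a replicate block the interaction gave 1359 calls by title number and 1312 by description number, where 30 abundant loci were more positive. Of the 1389 calls of the main fit, 1230 were kept in the same direction with the title number. With the description number 1002 were kept, 689 more positive and 313 more negative. LOC_Os09g36680 was not called with either block (edgeR adjusted p 0.118 with the title number and 0.125 with the description number), and the other named calls held. The study laid out pots in complete blocks with 6 replications, and the description numbers run from 1 to 6 with gaps in each group. Whether a library's number is that of its block is not given in the sources used here. Deviations from the group means were compared between same-numbered libraries. Their correlation was over 0.1 in 9 of 24 pairs by title number and in 6 of 17 by description number. Among these 6 were all 3 pairs of DTY-IL drought with Swarna drought. Libraries of different numbers were not compared, so these values cannot decide whether the numbers are blocks. The main design was left without a block. None of the 5 named loci that were called reversed, and LOC_Os01g66120 and LOC_Os03g03510, which were not called, took either sign. The adjusted p of LOC_Os12g24320 was 0.0678 with limma-voom, and that of LOC_Os09g36680 was 0.213.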

Other observations

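By the chromosome in the locus identifier, the share of tested loci with a more positive call was between 2.57% (chromosome 11) and 4.56% (chromosome 1), and with a more negative call between 0.896% (chromosome 6) and 1.70% (chromosome 9).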
